A study of Mus musculus with 9 samples.

Results

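The 10 genes described here carry out the methylation and clearance of nicotinamide and the recycling of nicotinamide adenine dinucleotide (NAD) in mouse liver. They were Nnmt, Aox1, Aox3, Nampt, Naprt, Nmnat1, Nmnat3, Nadk2, Sirt1 and Sirt3. They were taken from the gene table by an exact match of the gene name. All 10 were found among 26345 named entries that hold a known transcript. Whole liver RNA was sequenced in 3 groups of 3 libraries from mice with a labelled age of 8 weeks that were fed for 5 weeks. The pair-fed mice (PF) received the isocaloric control liquid diet, and the alcohol-fed mice (AF) received the Lieber-DeCarli diet, a liquid diet in which alcohol replaces part of the calories. The third group (AF with MNA) received the Lieber-DeCarli diet and daily intraperitoneal injections of MNA at 50 mg/kg. The labels do not spell out MNA, no group with a sham injection is among the samples used here, and so the injection and the compound cannot be told apart. PF and AF carry the strain label C57BL/6, whereas the labels of the AF with MNA libraries read C57BL/7, C57BL/8 and C57BL/9. The study's methods describe male C57BL/6J mice, killed after a fast, in the PF and AF groups.

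Nicotinamide is released whenever enzymes such as sirtuins and poly(ADP-ribose) polymerases consume NAD. It has competing fates in the liver. Nampt returns it to NAD through nicotinamide mononucleotide, whereas Nnmt methylates it with the methyl group of S-adenosylmethionine, and aldehyde oxidases oxidise the methylated product to pyridones that leave in the urine. Ethanol oxidation by alcohol dehydrogenase and aldehyde dehydrogenase reduces NAD to NADH, and NAD supply is therefore often studied in alcohol-fed liver.

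Levels are FPKM, fragment numbers scaled to the length of the transcript and to the size of the library, so they can be compared between genes per length. Over the 9 libraries the order of mean FPKM was Aox3 (36.0), Nnmt (19.6), Naprt (14.2), Nadk2 (6.79), Nampt (5.97), Sirt3 (5.41), Aox1 (4.22), Nmnat1 (3.67), Sirt1 (3.15) and Nmnat3 (0.608). The order of the group means was not the same in each group. In AF, Nnmt (26.6) lay above Aox3 (22.5) and Nampt (5.86) above Nadk2 (5.56). In PF, Naprt (15.5) lay above Nnmt (15.3), Sirt3 (5.37) above Nampt (5.22), and Nmnat1 (3.98) and Sirt1 (3.25) above Aox1 (2.73). Neighbours in the pooled order overlapped in their library values, except that every Naprt value lay above every Nadk2 value and every Sirt1 value above every Nmnat3 value. Aox3 stood above 95.2% of 12252 named entries that averaged 0.5 FPKM or more, and Nmnat3 above 5.21% of them. The tables give no read counts for genes, so precision was judged from the spread between libraries. Among deposited lncRNA transcripts, 1 FPKM stood for a mean coverage of 5.84 to 8.30 reads per base, which bears most on Nmnat3. AF replicate 3 and AF with MNA replicate 1 stood apart in intronic signal, since transcripts assembled inside introns summed to 9433 and 8934 FPKM there, against 2477 to 4937 in the other 7 libraries.

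Aox1 and Aox3 are neighbours on the plus strand of chromosome 1 (build GRCm38), with Aox1 at chr1:58029931-58106413 and Aox3 at chr1:58113130-58200698, and they encode aldehyde oxidases of the same family. They are shown because they carry the clearest result, and because gene copies can share reads. Their coding sequences, of 3999 and 4005 bases, were 67.2% identical over 3972 aligned bases, and the longest identical run was 20 bases. The 100-base coding stretch with the fewest differences is printed from GENCODE M21 with the 16 differing bases in capitals. In Aox1 it holds coding bases 101 to 200 and spans chr1:58043542-58047137 across exons, and in Aox3 it holds coding bases 113 to 212 and spans chr1:58118598-58119483.
Aox1 coding: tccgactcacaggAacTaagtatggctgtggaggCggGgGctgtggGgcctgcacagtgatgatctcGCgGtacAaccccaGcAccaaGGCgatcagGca
Aox3 coding: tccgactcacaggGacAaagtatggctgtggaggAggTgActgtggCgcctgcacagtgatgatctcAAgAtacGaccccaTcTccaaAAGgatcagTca
The median over all 100-base windows was 33 differing bases. Whether reads were shared between the genes was not tested.

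The sequence before each start site comes from the RefSeq promoter table (GRCm38.p6), cut at the first base of the gene in GENCODE. It covers chr1:58029719-58029930 for Aox1 (212 bases, 52.4% G and C) and chr1:58112886-58113129 for Aox3 (244 bases, 56.6% G and C). Both are on the plus strand.
Aox1 promoter: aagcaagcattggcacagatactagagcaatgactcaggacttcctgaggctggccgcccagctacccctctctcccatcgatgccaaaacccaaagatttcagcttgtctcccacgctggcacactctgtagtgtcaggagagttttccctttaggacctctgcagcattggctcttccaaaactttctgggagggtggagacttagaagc
Aox3 promoter: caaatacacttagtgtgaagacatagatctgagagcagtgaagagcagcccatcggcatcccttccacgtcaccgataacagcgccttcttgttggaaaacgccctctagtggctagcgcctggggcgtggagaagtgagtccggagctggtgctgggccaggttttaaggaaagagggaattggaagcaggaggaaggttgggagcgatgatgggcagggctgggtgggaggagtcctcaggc
Neither stretch holds a capital letter, because none of 5 motifs searched on both strands in the 250 bases before the RefSeq start was found there. The motifs were the antioxidant response element TGACNNNGC, present in 10.2% of 32841 promoters of that length, the E-box CACGTG (6.02%), TTCNNNGAA (7.02%), the nuclear receptor motif AGGTCA (14.0%) and TTGCNNAA (9.57%). Of the other genes with an entry in the table, Sirt1 held 2 E-boxes and 1 antioxidant response element that overlaps the first of them, Sirt3 held 1 antioxidant response element, and Nampt held 1 nuclear receptor motif. These matches describe letters only.

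The 3 comparisons share libraries. They were AF against PF, AF with MNA against AF, and AF with MNA against PF. Aox3 was the only one of the 10 genes that passed the adjusted test in any of them. It was 2.67-fold lower in AF than in PF and 2.36-fold lower in AF with MNA than in PF, and the AF and AF with MNA values overlapped. Aox1, its neighbour, had higher FPKM in both alcohol-fed groups than in PF in every library, without passing the adjusted test. The nicotinamide methylating enzyme Nnmt, the salvage enzymes and both sirtuins passed no adjusted test.

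**Figure D1:**
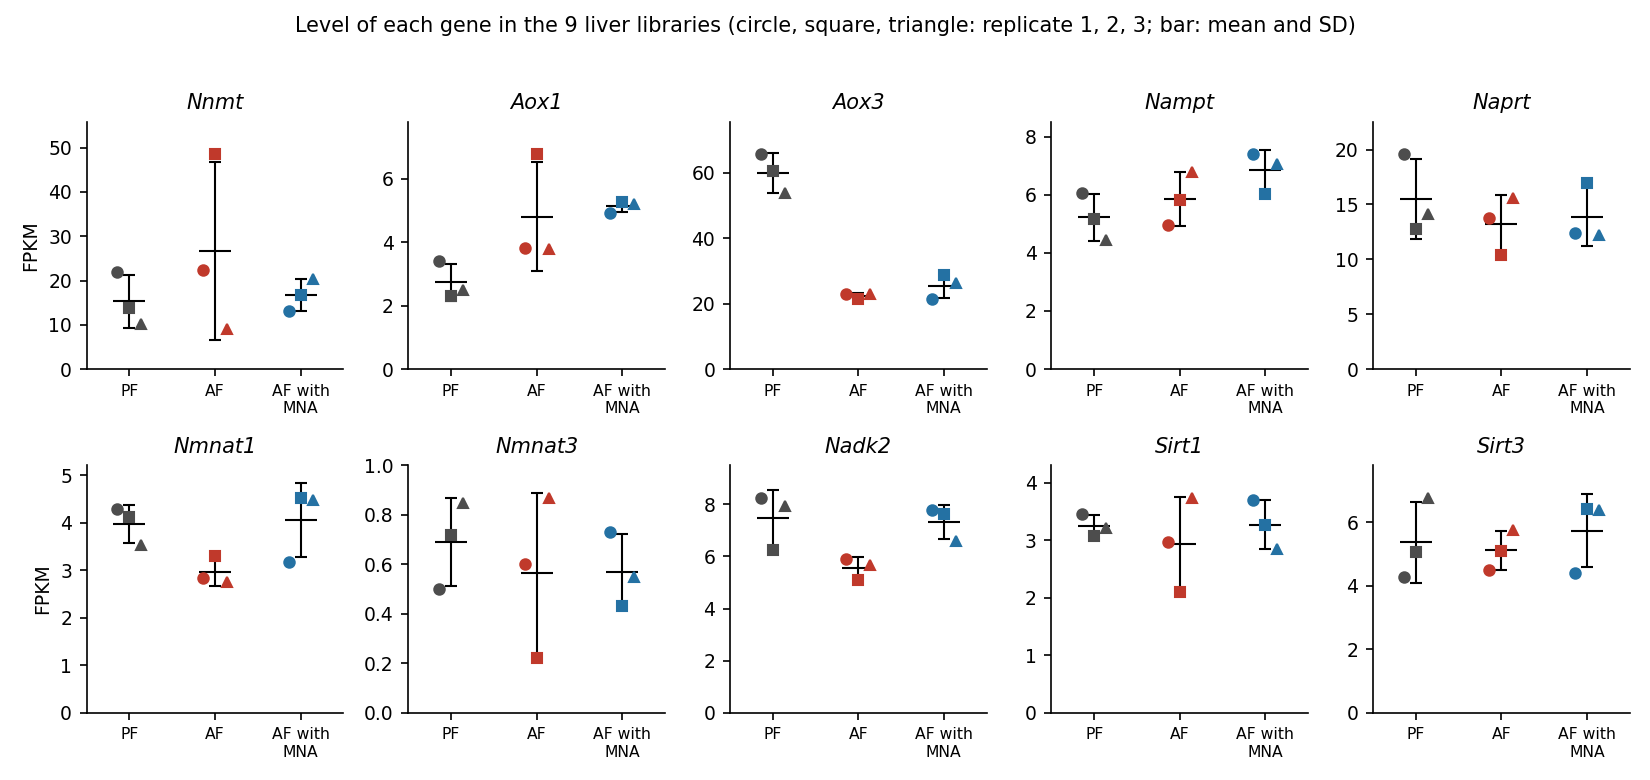
FPKM (vertical axes, each from 0) of the 10 genes in the 9 libraries, grouped as PF, AF and AF with MNA. Circles, squares and triangles are replicates 1, 2 and 3, and the bars are the group mean and SD. All AF and AF with MNA values of Aox3 lie between 21.3 and 28.7 FPKM, below the lowest PF value of 53.8.

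For the tests, log2(FPKM + 1) values were compared with limma across all named entries that averaged 0.5 FPKM or more in the libraries compared, and all 10 genes passed that minimum in each comparison. In AF against PF, 1 of the 10 genes (Aox3) had a Benjamini-Hochberg adjusted p under 0.05, where 0.326% of 12268 tested entries did. The same gene passed a second rule, applied here to genes: an unadjusted limma p under 0.05 and group means whose log2 ratio lies beyond 1 or -1, which 4.3% of entries passed. The study's methods state such a p and fold threshold for lncRNAs and none for genes, and this rule is called the threshold of the methods in what follows. In all, 4 of the 10 had an unadjusted p under 0.05 (Aox3, Nmnat1, Nadk2 and Aox1), against 11.7% of entries, and in the same 4 genes the libraries of AF and PF did not overlap, against 18.3% of entries. With any 1 library left out, 2 or 3 of the 10 had an unadjusted p under 0.05. Between AF with MNA and AF no gene of the 10 was called by either rule (0.0491% and 1.98% of 12214 entries were). In that comparison only Nadk2 had an unadjusted p under 0.05, against 5.22% of entries, and groups that did not overlap, against 10.1%. Against PF, the AF with MNA group again had Aox3 called by both rules, against 0.432% and 3.89% of 12276 entries. There 3 of the 10 genes (Aox1, Aox3 and Nampt) had an unadjusted p under 0.05, against 14.5%, and 2 (Aox1 and Aox3) did not overlap, against 21.4%. The median of all tested entries moved by -0.03, 0.01 and -0.02 on the log2 scale in the 3 comparisons.

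**Figure D2:**
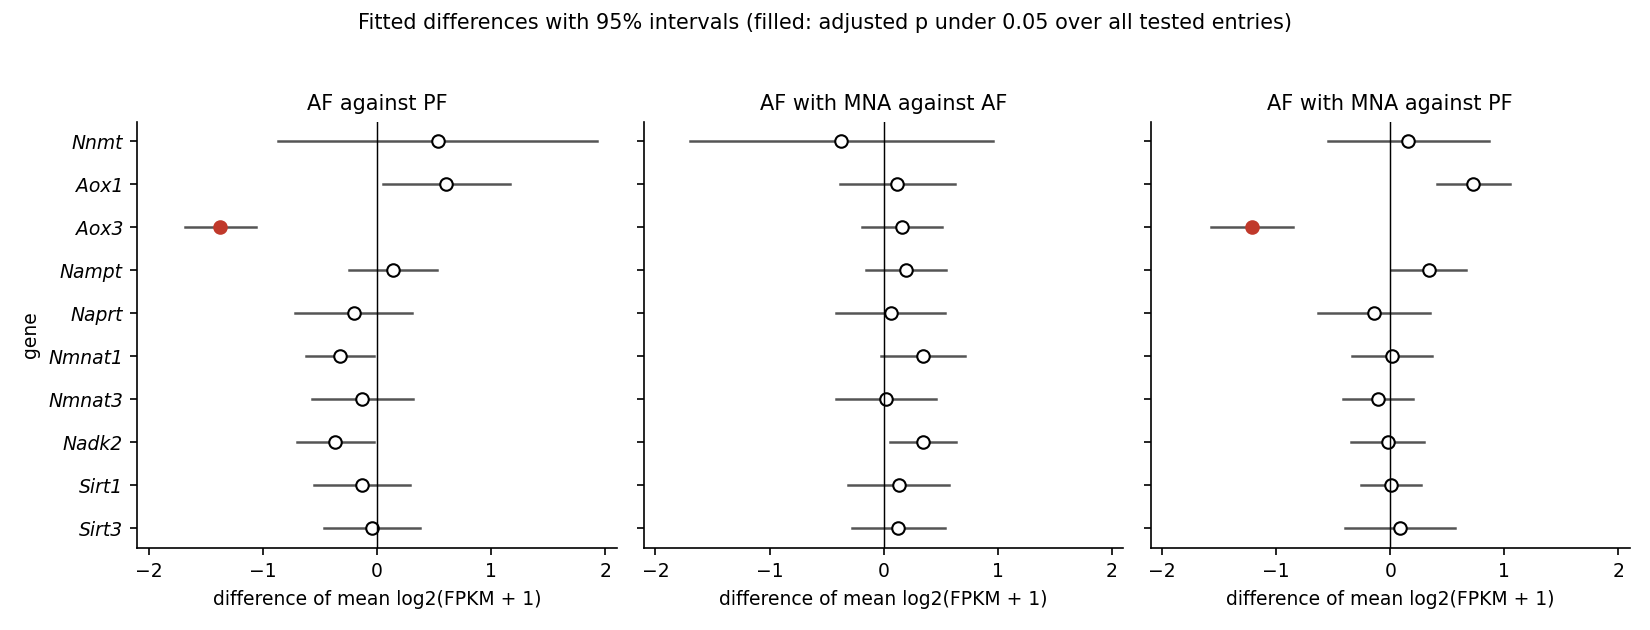
Difference of the group means of log2(FPKM + 1) (horizontal axis) for each gene (vertical axis) in the 3 comparisons, with 95% intervals from limma. Filled points have an adjusted p under 0.05 over all tested entries, and Aox3 is the only gene with a filled point, in both comparisons with PF.

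Nnmt (nicotinamide N-methyltransferase, chr9:48591877-48605153, minus strand) measured 21.9, 13.8 and 10.2 FPKM in PF replicates 1, 2 and 3. The AF libraries measured 22.4, 48.6 and 8.95, and those with MNA 13.1, 16.7 and 20.3. AF held both the highest and the lowest value of all 9 libraries, and all groups overlapped. Within AF the highest library was 5.43 times the lowest, against 2.14 times in PF and 1.55 times in AF with MNA. The log2 difference was 0.53 (SE 0.58, limma adjusted p = 0.772) for AF against PF and -0.37 (SE 0.55, limma adjusted p = 0.988) for AF with MNA against AF. Single AF libraries moved both values: they were -0.035 and 0.19 without AF replicate 2, and 1.12 and -0.96 without AF replicate 3 (limma adjusted p = 0.336 and 0.655). Between AF with MNA and PF the difference was 0.16, with a 95% interval of -0.55 to 0.86.

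Aox3 (aldehyde oxidase 3), which oxidises N-heterocycles and aldehydes, measured 65.8, 60.6 and 53.8 FPKM in PF. The AF libraries gave 23.0, 21.5 and 23.0, and the AF with MNA libraries gave 21.3, 28.7 and 26.4. Neither alcohol-fed group overlapped PF, and the alcohol-fed groups overlapped each other. Aox3 fell from a mean of 60.0 ± 6.04 in PF to 22.5 ± 0.866 in AF (SD, n = 3 each). The log2 difference was -1.37 (SE 0.13) with a limma adjusted p of 0.0141. The AF with MNA mean was 25.5 ± 3.76, and the difference from PF was -1.21 (SE 0.15) with a limma adjusted p of 0.0445. The difference between AF with MNA and AF was 0.16, with a 95% interval of -0.19 to 0.51. In whole liver, fewer cells of a type and less RNA per cell cannot be told apart. The exact two-sided permutation test of 3 against 3 libraries cannot go below p = 0.1, the value it gave for both comparisons with PF.

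The direction of the Aox3 difference held whichever library was left out, but its adjusted call did not. With each of the 6 libraries left out in turn the difference for AF against PF was -1.45 to -1.31, and the limma adjusted p was 0.041 to 0.0708, under the threshold in 2 of 6 fits. Without AF replicate 3, one of the libraries with high intronic signal, it was -1.39 (adjusted p = 0.0572). For AF with MNA against PF the difference was -1.30 to -1.09 and the adjusted p 0.0714 to 0.136, under the threshold in 0 of 6 fits. Without AF with MNA replicate 1 it was -1.09 (adjusted p = 0.0714). With the replicate number as a block, the limma adjusted p was 0.108 and 0.247 in the 2 comparisons with PF. An unmoderated model with a library-size covariate gave adjusted p of 0.245 and 0.269. In AF with MNA against PF the limma adjusted p was also above 0.05 with equal library medians (0.0634), no filter (0.0790) and all gene entries (0.0534).

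Aox1 (aldehyde oxidase 1) measured 3.41, 2.29 and 2.49 FPKM in PF, 3.83, 6.78 and 3.78 in AF and, with MNA, 4.91, 5.28 and 5.21. Its PF values lay below those of both alcohol-fed groups, and the highest value was again that of AF replicate 2. The log2 difference was 0.61 (SE 0.23, unadjusted p = 0.0357, limma adjusted p = 0.39) for AF against PF and 0.73 (SE 0.13, unadjusted p = 0.00138, limma adjusted p = 0.113) for AF with MNA against PF. Without AF replicate 2 the first of these was 0.38. AF with MNA and AF differed by 0.12 (95% interval -0.38 to 0.62), or by 0.35 without AF replicate 2.

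Set side by side, the balance of the pair did not overlap between PF and the alcohol-fed groups. Aox1 made up 4.33 ± 0.647% of the summed FPKM of Aox1 and Aox3 in PF, 17.5 ± 5.65% in AF and, with MNA, 16.9 ± 1.62% (SD, n = 3 each). The PF libraries lay between 3.64% and 4.93%, and the 6 alcohol-fed libraries between 14.1% and 24.0%. The summed level was 62.8 ± 6.48 FPKM in PF, 27.3 ± 0.852 in AF and, with MNA, 30.6 ± 3.95. For the share and for the sum the exact two-sided permutation p was 0.1 against PF, the smallest that 3 against 3 libraries allow. Aox3 made up most of the sum in each group, so its lower level by itself lowers the sum and raises the Aox1 share. The share and the sum therefore restate the values of the single genes and are no further result about the pair. Aox2 and Aox4, the remaining aldehyde oxidase genes of the cluster, averaged 0.02 FPKM and 0.00 FPKM. The 5 further genes within 300 kb of the pair that passed the minimum level had log2 differences between AF and PF of 0.03 (Bzw1), 0.26 (Clk1), -0.07 (Ppil3), -0.05 (Nif3l1) and -0.10 (Orc2), and none passed the adjusted test.

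**Figure D3:**
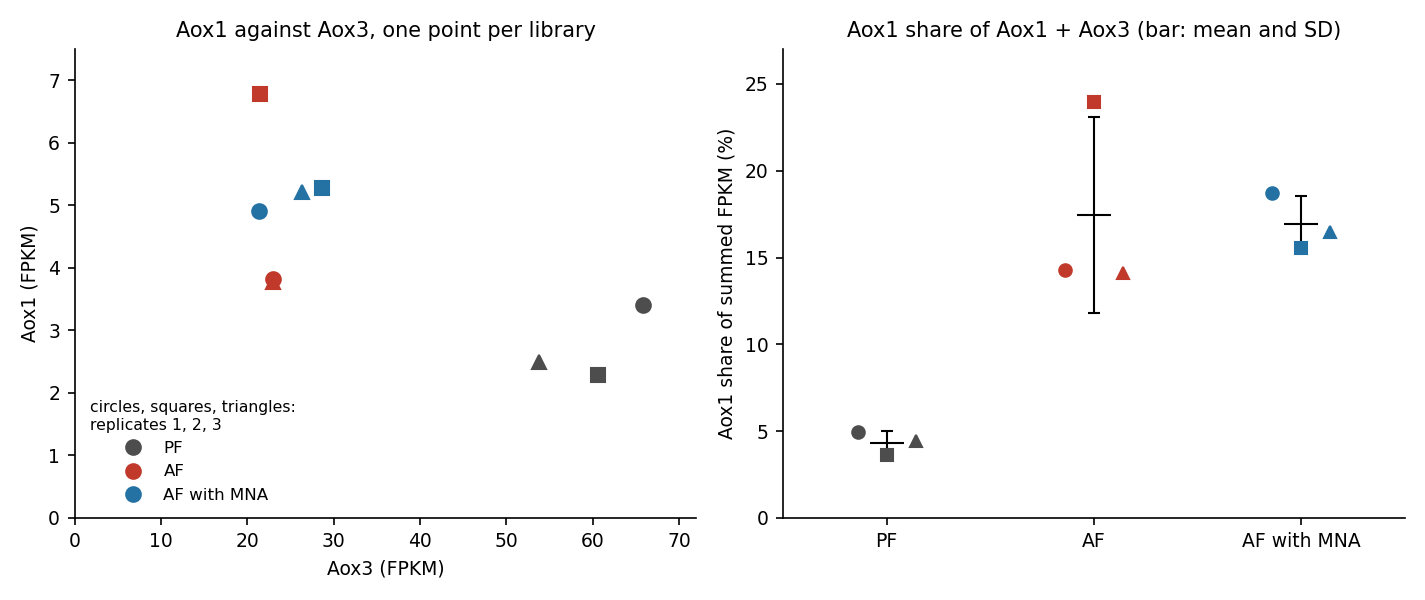
Left, Aox1 against Aox3 (FPKM on both axes), with 1 point per library. Right, the share of Aox1 in the summed FPKM of both genes in percent, with the group mean and SD. The 3 PF libraries stand at high Aox3 and an Aox1 share below 5%, and all alcohol-fed libraries stand at an Aox1 share above 14%.

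Nampt (chr12:32819545-32853349, plus strand) is the rate-limiting enzyme of the salvage of nicotinamide. It measured 6.07, 5.16 and 4.44 FPKM in PF, 4.95, 5.83 and 6.79 in AF and, with MNA, 7.4, 6.04 and 7.06. Each pair of groups overlapped, although in AF with MNA against PF only at PF replicate 1 and AF with MNA replicate 2. The log2 differences were 0.14 (AF against PF), 0.20 (AF with MNA against AF) and 0.34 (AF with MNA against PF, SE 0.13, unadjusted p = 0.0452, limma adjusted p = 0.335). Naprt (chr15:75890956-75894481, minus strand) starts the synthesis of NAD from nicotinic acid. Its values were 19.6, 12.7 and 14.2 FPKM in PF, 13.8, 10.4 and 15.6 in AF and, with MNA, 12.4, 17.0 and 12.3. The groups overlapped, and the log2 differences were -0.21, 0.06 and -0.14 in the same order of comparisons. Naprt shares its strand with the overlapping gene Eef1d, and reads there could be split between them. Nampt and Nmnat3 likewise overlap Gdap10 and Gm28530.

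Nmnat1 (chr4:149467572-149485202, minus strand) joins the mononucleotide to ATP in the nucleus and Nmnat3 (chr9:98287435-98420438, plus strand) does so in mitochondria. Nmnat1 measured 4.28, 4.12 and 3.53 FPKM in PF and 2.84, 3.3 and 2.76 in AF, with no overlap. With MNA it measured 3.17, 4.53 and 4.49, with replicate 1 inside the AF range and the other 2 libraries above every PF value. The log2 difference was -0.33 (SE 0.12, unadjusted p = 0.0356, limma adjusted p = 0.39) for AF against PF. It was 0.34 (SE 0.15, unadjusted p = 0.0634, limma adjusted p = 0.94) for AF with MNA against AF and 0.02 for AF with MNA against PF (95% interval -0.34 to 0.37). Nmnat3 was low, at 0.5, 0.72 and 0.85 FPKM in PF, 0.6, 0.22 and 0.87 in AF and, with MNA, 0.73, 0.43 and 0.55. The groups overlapped, and the 3 log2 differences lay between -0.13 and 0.02.

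Nadk2 (chr15:9071260-9110891, plus strand) phosphorylates NAD to NADP in mitochondria. It measured 8.26, 6.25 and 7.94 FPKM in PF, 5.91, 5.1 and 5.67 in AF and, with MNA, 7.78, 7.64 and 6.58. The AF libraries lay below all libraries of both other groups. The log2 difference was -0.36 (SE 0.14, unadjusted p = 0.0374, limma adjusted p = 0.393) for AF against PF and 0.34 (SE 0.12, unadjusted p = 0.0276, limma adjusted p = 0.94) for AF with MNA against AF. AF with MNA and PF differed by -0.02 (95% interval -0.34 to 0.30). AF enters both of these comparisons, so a low AF value moves them in opposite directions at once.

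The NAD-dependent deacylases Sirt1 (nuclear, chr10:63319005-63381704, minus strand) and Sirt3 (mitochondrial, chr7:140863666-140882309, minus strand) had log2 differences between -0.13 and 0.13 in the 3 comparisons. Sirt1 measured 3.46, 3.07 and 3.21 FPKM in PF, 2.97, 2.1 and 3.74 in AF and, with MNA, 3.7, 3.26 and 2.85. The groups overlapped, and AF with MNA differed from PF by 0.00 (95% interval -0.26 to 0.27). A second Sirt1 entry, made of an assembled transcript alone, was at 0 except for 1.59 FPKM in AF replicate 3 and 0.41 in AF with MNA replicate 2, and it was not tested. Sirt3 measured 4.27, 5.06 and 6.78 FPKM in PF, 4.51, 5.11 and 5.75 in AF and, with MNA, 4.4, 6.42 and 6.4. Its log2 difference for AF against PF was -0.04 (95% interval -0.47 to 0.38). Sirt3 overlaps Ric8a and Psmd13 on the opposite strand. The libraries were made to keep the strand.

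The other genes of the pathway were taken from a list of 10 that act in NAD synthesis and phosphorylation. Nmrk1, a kinase that makes nicotinamide mononucleotide from nicotinamide riboside, had the only calls. It measured 5.92, 7.54 and 8.38 FPKM in PF, 3.52, 1.79 and 4.05 in AF and, with MNA, 6.75, 5.59 and 6.96. AF lay below every library of both other groups, and the AF with MNA libraries lay below the highest 2 PF libraries. Nmrk1 passed the threshold of the study's methods in AF against PF (log2 difference -1.04, SE 0.25, unadjusted p = 0.00497, limma adjusted p = 0.205) and in AF with MNA against AF (0.89, SE 0.24, unadjusted p = 0.00848, limma adjusted p = 0.94). It did not pass the adjusted test in either. AF replicate 2 was the lowest library, and without it the differences were -0.78 and 0.63 and the threshold was passed in neither comparison. Without AF with MNA replicate 3 the second difference was 0.84 and also missed the threshold. Over the list, 7 of 10 genes were tested. In AF against PF 0 were higher and 1 lower by the threshold of the methods, which 4.3% of all entries passed, and the median difference was 0.03, against -0.03 over all entries. For AF with MNA, 1 was higher and 0 lower against AF, where 1.98% of entries passed (median -0.01, against 0.01), and none passed against PF, where 3.89% did (median -0.15, against -0.02). Slc25a51, which carries NAD into mitochondria, was named after its values were seen: it reached 29.2 FPKM in AF replicate 2 and lay between 3.94 and 10.8 in the other 8 libraries. The same library held the highest Nnmt and Aox1 values and the lowest Nmrk1, Naprt, Nmnat3, Nadk2 and Sirt1 values of the 9.

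**Figure D4:**
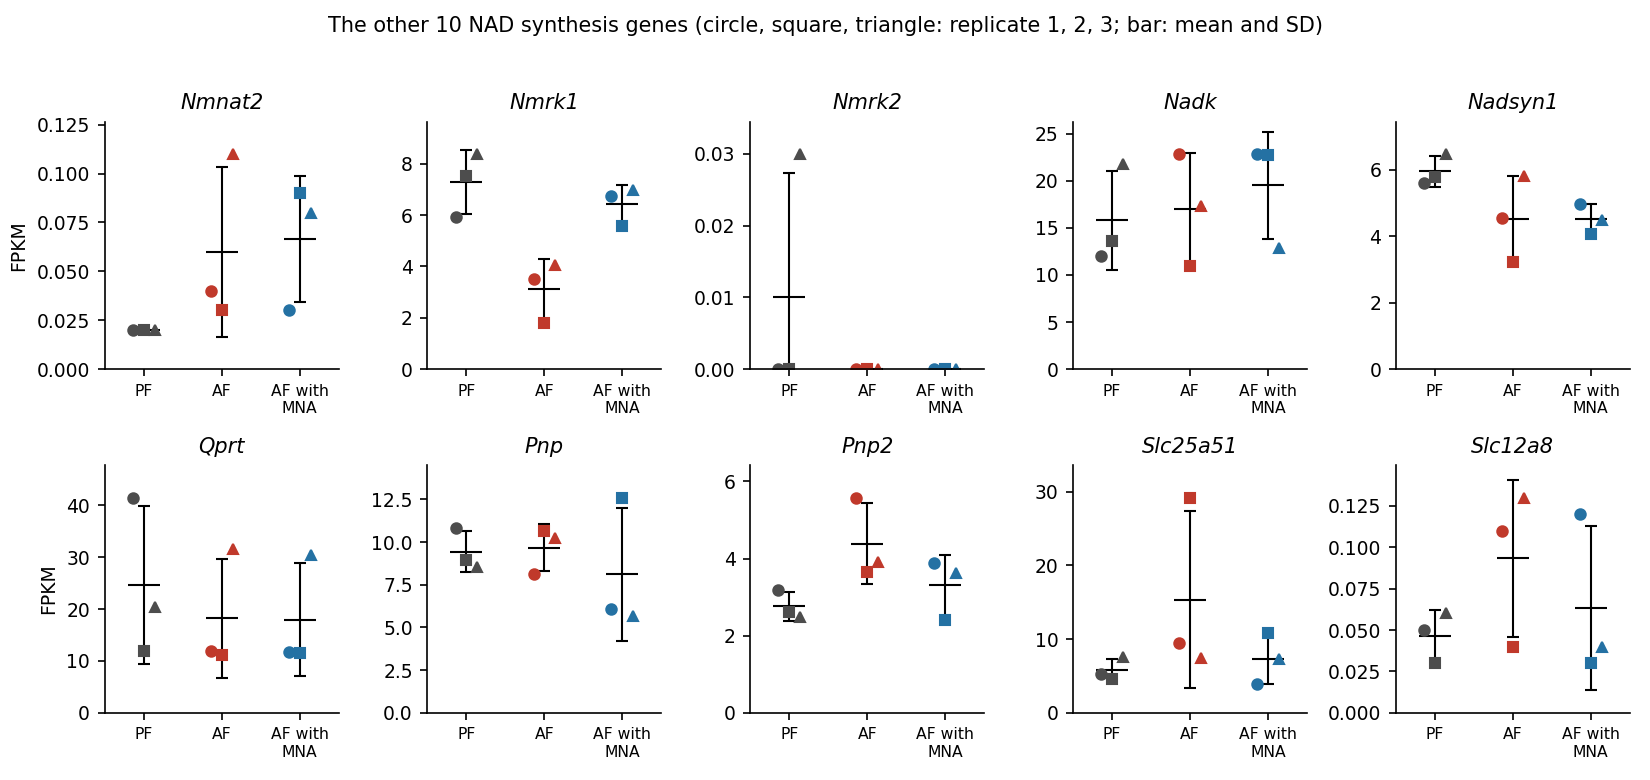
FPKM (vertical axes, each from 0) of the other 10 NAD synthesis genes in the 9 libraries, drawn like the plot of the 10 main genes, with the group mean and SD. Nmrk1 lies between 1.79 and 4.05 FPKM in AF and between 5.59 and 8.38 in both other groups.

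Further lists hold genes around these reactions. Of the NAD-consuming enzymes 17 of 20 were tested and none was called by either rule in any comparison. The median differences were -0.14, 0.01 and -0.12 in AF against PF, AF with MNA against AF and AF with MNA against PF. At an unadjusted limma p under 0.05, 2 were higher and 4 lower in AF against PF, where 11.7% of entries passed. Against PF, AF with MNA had 1 higher and 3 lower, where 14.5% passed. The summed FPKM of the list was 59.3 to 63.2 in PF, 49.3 to 56.0 in AF and 50.0 to 58.6 in AF with MNA. Neither alcohol-fed group overlapped PF in this sum. Of 7 genes of NADP and NADH turnover, all were tested and none was called. Of 9 genes that supply or use S-adenosylmethionine, the methyl donor of Nnmt, none was called. Their summed FPKM was 991 to 1075 in PF, 1579 to 1873 in AF and 1380 to 1750 in AF with MNA, without overlap between PF and the alcohol-fed groups. The median difference of the 9 genes was -0.12 in AF against PF, opposite in sign to the sum, 0.13 in AF with MNA against AF and 0.09 in AF with MNA against PF. Most of that sum came from 2 genes named after their values were seen, Mat1a, which makes S-adenosylmethionine, with means of 317, 634 and 554 FPKM, and Gnmt, which methylates glycine with it, with means of 498, 914 and 772. Their AF against PF log2 differences were 0.97 and 0.82 with limma adjusted p of 0.157 and 0.323. Gamt, which makes creatine with the same donor and was also named after its values were seen, lay lower in AF than in PF (17.0 FPKM in AF against 26.3 in PF, log2 difference -0.63, limma adjusted p = 0.359). Of 11 genes of the molybdenum cofactor, which aldehyde oxidases require, and of other molybdoenzymes, 9 were tested and none was called. Of 7 organic cation transporters 5 were tested, and the carnitine carrier Slc22a5 was called in AF with MNA against PF by the threshold of the methods, which 3.89% of entries passed. Its means were 2.84 FPKM in PF and 6.16 in AF with MNA (log2 difference 0.90, SE 0.12, limma adjusted p = 0.0595). The AF libraries, at 4.31, 13.7 and 3.48 FPKM, also lay above the highest PF library, at 3.1.

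The circadian clock list was included because Nampt is a known clock target, and the NRF2 list because oxidation enzymes and transporters are among its targets. Of 16 clock genes, 14 or 15 were tested, with median differences of -0.49, 0.25 and 0.02 in AF against PF, AF with MNA against AF and AF with MNA against PF (-0.03, 0.01 and -0.02 over all entries). Bhlhe40, a transcriptional repressor of the clock, fell in AF with MNA against PF from a mean of 15.9 to 4.62 FPKM (log2 difference -1.59, SE 0.15, limma adjusted p = 0.0229). The PF libraries measured 17.5, 13.0 and 17.3 FPKM, and AF, at 10.6, 1.05 and 12.4, also lay below all of them, with AF replicate 2 lowest. That call stood in 1 of 6 fits with a library left out (limma adjusted p 0.0304 to 0.0751), and was lost with the replicate block (adjusted p = 0.158), with all 9 libraries in the fit (adjusted p = 0.357) and with the unmoderated covariate model (adjusted p = 0.373). By the threshold of the methods Bhlhe41 was lower in both comparisons with PF, Arntl was higher in AF with MNA (0.79 FPKM) than in PF (0.247 FPKM), and Cry1 was higher in AF with MNA (4.56 FPKM) than in AF (2.22 FPKM). Their limma adjusted p lay between 0.273 and 0.94. The AF libraries of Arntl, at 0.4, 0.68 and 0.45 FPKM, also lay above every PF library. Arntl reached the minimum level only through AF with MNA, and Bhlhe41 only through PF, the group where each was high, so these calls are given as descriptions. Bhlhe41 kept the threshold in 9 of 15 alternatives for AF against PF (-0.78 to -0.41 with a library left out) and in 11 of 15 for AF with MNA against PF, Arntl in 10 of 13 and Cry1 in 13 of 16. Of 10 NRF2 targets 9 were tested, and in both comparisons with PF 5 were higher and 0 lower by the threshold of the methods, which 4.3% and 3.89% of all entries passed. Gclc kept the threshold in 11 of 16 alternatives for AF against PF and in 12 of 16 for AF with MNA against PF. Hmox1 kept it in 14 of 16 in the latter, and the other called genes in 15 or 16 of 16. The median differences of the list were 0.86 in AF against PF, -0.14 in AF with MNA against AF and 0.90 in AF with MNA against PF. These counts and medians include Abcc4, an efflux transporter that reached the minimum level only through the alcohol-fed groups. It averaged 0.293 FPKM in PF and 6.20 in AF (log2 difference 2.46, SE 0.15, limma adjusted p = 0.00293, or 0.0140 with no minimum level), a call that stood in 6 of 6 fits with a library left out and with the replicate block (adjusted p = 0.0419), but not with the unmoderated covariate model (adjusted p = 0.208). Ephx1, Nqo1 and Srxn1 followed at adjusted p of 0.117 to 0.19. In AF with MNA against PF the 4 called genes with the lowest p were Ephx1, which hydrolyses epoxides (66.3 to 206 FPKM, limma adjusted p = 0.0173), Nqo1, Abcc4 and Gclc. The Ephx1 call stood in 3 of 6 fits with a library left out (limma adjusted p 0.0375 to 0.0630), and was lost with the replicate block (adjusted p = 0.158) and the unmoderated covariate model (adjusted p = 0.310). Gclm, a subunit of the enzyme that starts glutathione synthesis, was named after its values were seen: it passed neither rule but lay lower, at 13.9 against 7.39 FPKM (log2 difference -0.83, unadjusted p = 0.000826, limma adjusted p = 0.0979). None was called between AF with MNA and AF.

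By a fixed measure, the root mean square difference between centred log2(FPKM + 1) values over the 9 libraries, the entries most like Nnmt were Isyna1, Steap4 and Fga (0.323 to 0.332, where the Nnmt pattern itself measured 0.654). The entries most like Aox1 were Grn, Tmem82 and Rbpms (0.074 to 0.134, against 0.386). Those most like Aox3 were 4930534D22Rik, Olig1 and Clec2h (0.195 to 0.199, against 0.625), and those most like Nampt were Zcchc17, Mex3d and Rel (0.097 to 0.104, against 0.198). The likeness is a description over 12251 entries. Within the bounds of the 10 genes the lncRNA table held 0 transcripts. The circRNA table held 6 back-splice junctions there, 2 in Aox1, 2 in Aox3, 1 in Nmnat1 and 1 in Nadk2. The Nmnat1 junction had 5 reads, all in AF with MNA replicate 1, and the other 5 had 1 read each.

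Liver identity and cell mixture were followed with marker lists. The 7 of 8 hepatocyte markers in the table summed to 16192 to 21398 FPKM in PF, 14675 to 22081 in AF and 19697 to 22029 in AF with MNA, and none was called. Kupffer and macrophage markers summed to 65.4 to 79.6, 51.5 to 95.7 and 66.7 to 87.1 FPKM. Of 7 tested, Marco alone was called, higher in both comparisons with PF by the threshold of the methods, which 4.3% and 3.89% of entries passed. In AF against PF this held in 11 of 15 alternatives (0.45 to 0.87 with a library left out). The median difference of the 7 was -0.18 in AF against PF, opposite in sign to Marco (0.66), and 0.05 in AF with MNA against PF. Marco averaged 0.803 FPKM in PF. Stellate cell markers (32.8 to 38.4, 31.3 to 44.5 and 33.9 to 48.0), sinusoidal endothelial markers (28.4 to 43.7, 38.8 to 57.6 and 45.5 to 54.8) and cholangiocyte markers (3.29 to 4.36, 4.87 to 9.13 and 3.34 to 6.38) had no call. The endothelial sums of PF and AF with MNA did not overlap, and the median difference of the 7 endothelial markers was 0.37 in AF against PF and 0.55 in AF with MNA against PF, where 3 of 7 were higher at an unadjusted p under 0.05, against 14.5% of entries in either direction. Neutrophil and lymphocyte markers summed to at most 3.10 and 1.57 FPKM, adipocyte markers to at most 0.19, and pancreatic acinar markers to at most 7.18. The 3 erythroid markers tested summed to 252 to 349, 216 to 519 and 220 to 332 FPKM. Of these Alas2 alone was lower in both comparisons with PF by the threshold of the methods (in 16 of 16 and 13 of 16 alternatives), while the median difference of the 3 was 0.31 in AF against PF and -0.04 in AF with MNA against PF. AF replicate 2 had the lowest hepatocyte sum (14675 FPKM) and the highest Kupffer and macrophage (95.7) and erythroid (519) sums of the 9 libraries. The part of such marker shifts in the Aox3 difference was not tested.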

How the data were processed

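Liver RNA was freed of ribosomal RNA, made into stranded libraries (dUTP method) and sequenced from both ends, with 3 libraries in each of the groups PF, AF and AF with MNA. The submitters' processing notes name cutadapt 1.9, FastQC, HISAT2, StringTie 1.3.4, edgeR and TopHat. The genome build is not given in the sources used here, but GENCODE M21 (build GRCm38) holds 7841 of the 7879 known lncRNA transcripts deposited, and 7708 have identical bounds. Gene FPKM values were computed by the authors with StringTie from transcripts merged across libraries, and these are rounded to 2 decimals in the table. Scaling to the library's fragments means that a large change in a few abundant genes can shift the others. The deposited lncRNA table also gives the mean read coverage of each transcript, and a coding score (CPC, CNCI) that was not used. The circRNA values are junction read counts as deposited, beside the authors' normalized signal. The columns of group comparisons were not used, and 0 columns of single samples were left unmapped.

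Groups and replicate numbers were taken from the sample labels. The labels do not say whether each library came from 1 animal, so p-values measure the spread between these libraries, which may be technical. The gene table held 52151 entries. The 25806 entries made of assembled transcripts alone were left out, and 26345 were kept. Entries that averaged 0.5 FPKM or more in the 6 libraries of a comparison were tested on log2(FPKM + 1) with limma 3.58.1 (lmFit, eBayes with an intensity trend) in R 4.3.3, and p-values were adjusted by the Benjamini-Hochberg method over all tested entries. A fold change on this scale understates the change of low genes. The fit was checked on simulated data. Python 3.11.15, pandas 2.3.3, scipy 1.17.1, Biopython 1.88 and matplotlib 3.10.9 were used for the rest. The members and the lists were chosen with earlier results of these data known, and no p-value was adjusted over a list alone. All 10 genes are named in each comparison. From the lists, genes past either call rule were named, at most 4 a list, and for 4 genes the 3 entries with the most similar pattern were named. Promoters came from RefSeq, with an entry for 7 of the 10 genes. Alternatives were pseudocounts of 0.1 and 0.01, equal library medians, eBayes without the trend, a joint fit of all 9 libraries, a replicate block, no filter, a minimum of 2 FPKM, all gene entries, an unmoderated model with Ballgown's library-size covariate, and each library left out in turn.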

Additional observations from a re-analysis of the deposited data

How the results depend on the processing

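The number of the 10 genes with an adjusted p under 0.05 went from 1 to 0 in AF against PF with the replicate block and with the unmoderated covariate model, and in AF with MNA against PF with those 2 settings, equal medians, no filter and all gene entries. It was 0 to 1 and 0 to 0 with a library left out. The number past the threshold of the methods was 1 to 2 in both comparisons with PF and 0 to 1 in AF with MNA against AF with a library left out. The number with an unadjusted p under 0.05 in AF against PF went from 4 to 2 with equal medians, the block and the covariate model, and was 2 to 3 with a library left out. Between AF with MNA and AF it went from 1 to 2 with all 9 libraries and to 0 with the block, and was 0 to 2 with a library left out. Between AF with MNA and PF it was 2 to 3. The Aox3 difference kept its direction in all alternatives (-1.45 to -1.31 in AF against PF and -1.42 to -1.09 in AF with MNA against PF). The cause of the lost calls was not tested.

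Genes without a call changed sign. With the covariate model in AF with MNA against PF, Nnmt came to -0.10, Nmnat1 to -0.20, Nmnat3 to 0.037, Nadk2 to 0.051 and Sirt3 to -0.030. With a library left out, AF against PF spanned -0.035 to 1.12 for Nnmt, -0.27 to 0.039 for Nmnat3, -0.27 to 0.032 for Sirt1 and -0.17 to 0.11 for Sirt3. Between AF with MNA and AF the values spanned -0.96 to 0.19 for Nnmt, -0.089 to 0.18 for Naprt, -0.14 to 0.16 for Nmnat3 and -0.028 to 0.28 for Sirt1. Between AF with MNA and PF they spanned -0.079 to 0.44 for Nnmt, -0.29 to 0.029 for Naprt, -0.054 to 0.15 for Nmnat1, -0.13 to 0.047 for Nadk2, -0.067 to 0.076 for Sirt1 and -0.042 to 0.24 for Sirt3.

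Over all entries, calls by adjusted p in AF against PF (40) numbered 86 with all 9 libraries, 18 with the block, 25 without a filter and 0 with the covariate model, and those by the threshold of the methods (527) numbered 1183 without a filter, 265 at 2 FPKM, 993 with all entries and 335 with the covariate model. In AF with MNA against AF the 6 adjusted calls numbered 0 to 2 under 5 settings, and 242 became 676, 81, 572 and 106 in the order given. In AF with MNA against PF the 53 adjusted calls numbered 0, 22 and 0 with the block, no filter and the covariate model, and 477 became 1105, 228, 837 and 246. With a library left out the adjusted calls numbered 25 to 47, 6 to 13 and 24 to 47 in the 3 comparisons, with 25 without PF replicate 2 or AF replicate 1, 13 without AF replicate 2 and 24 without AF with MNA replicate 3, and those by the threshold of the methods 516 to 764, 211 to 367 (without AF replicate 3) and 467 to 545.

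The labels number the replicates alike in each group, and same-numbered libraries did not deviate together over all entries (r from -0.08 to 0.06 over 9 pairs). Such a correlation cannot tell whether they share a batch or a pairing, which was not tested. With the replicate block the Aox3 log2 difference stayed at -1.37 and -1.21 against PF, with adjusted p of 0.108 and 0.247.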
